A study of Mus musculus with 12 samples.

Results

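The bone morphogenetic proteins examined here were Bmp2, Bmp4, Bmp5, Bmp6 and Bmp7, with their close relatives Gdf5 and Gdf6 and the secreted antagonists Grem1 and Nog. These 9 genes were taken by symbol from the 55413 rows of the deposited expression table, whose Ensembl identifiers all matched a symbol. All 9 had a mean of at least 3 over the 12 libraries, the level required for testing, which 16459 genes reached. Values are regularized log2 (rlog) expression values made by the authors, in which 1 unit is 1 doubling and differences of weakly expressed genes are shrunk. They keep no read counts, so the sequencing depth behind each value is unknown.

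Paws of BALB/c mice were digested with collagenase, the cells of 2 to 3 paws were pooled, and the cultures, labelled as synovial fibroblasts, were passaged 5 times. Every paw had received monosodium urate (MSU) crystals, the crystals of gout: left paws on day 0 and day 9 (primed), right paws on day 9 alone (non-primed), and the labels place RNA extraction on day 18 without saying how the passages relate to it. Each of the 4 groups had 3 libraries. They were non-primed paws of mice given vehicle, primed paws of mice given vehicle, primed paws of mice given I-BET151 by injection (daily doses of 20 mg/kg that began 1 day ahead of priming), and primed-paw cells given 1 µM I-BET151 in the dish for 24 h. I-BET151 keeps BET proteins, readers of histone acetylation that promote transcription, off chromatin. Side and priming went together. Vehicle mice got injections without I-BET151, and the labels do not say whether the animals behind the in vitro cultures got them. Nor do they say whether the libraries of a group came from different mice, and p-values measure the spread between these pooled cultures.

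Bone morphogenetic proteins are secreted dimers of the TGF-beta superfamily. They bring together type I and type II serine kinase receptors, which phosphorylate Smad1, Smad5 and Smad9. These join Smad4 and switch on genes such as the Id family. Gremlin 1 (Grem1) and noggin (Nog) bind the ligands outside the cell and keep them from their receptors. In joints the pathway is known for cartilage and bone formation, and Gdf5 marks the cells from which joints and their lining arise.

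The libraries differed in how much they carried of the transcripts their tissue label names, and some were rich in those of melanocytes. Tyrp1, a melanin synthesis enzyme, ranged from 17.44 to 18.62 in non-primed libraries 1 to 3 and in vivo libraries 2 and 3, and from 3.98 to 6.1 in the other 7. Over 15 melanocyte markers the mean was 12.91 to 14.41 in these 5 libraries and 6.26 to 7.41 in the other 7. Over 10 fibroblast markers it was 6.68 to 10.86 in the 5 and 13.79 to 14.69 in the 7, and over 5 macrophage markers 4.77 to 7.84 and 9.37 to 11.91. Of 6 listed cartilage genes, the proteoglycan Acan (0.57 to 3.26) was low throughout, while Comp (4.93 to 14.85) and Col2a1 (3.87 to 11.42) reached high values. Sox9 stayed within 8.92 to 11.17. Col9a1 was higher in the 5 libraries (4.3 to 6.92) than in the 7 (0.86 to 3.08). So was Matn3 (5.85 to 6.51 against 4.26 to 5.1). Of 5 listed bone genes, Ibsp (-0.55 to 1.06) was low throughout, while Bglap reached 3.7, Sp7 5.76, Alpl 8.55 and Runx2 12. A reporter of BET inhibition, Hexim1, stood at 11.98 to 12.39 in the primed vehicle libraries and non-primed libraries 1 and 2. It stood at 13.85 to 14.26 in all treated libraries and also in the library labelled non-primed 3 (14.26). That library lay closest to in vivo library 2 (mean absolute difference over 16459 genes 0.345, against 0.803 and 0.852 to non-primed 1 and 2). In vivo library 1 lay closest to in vitro library 1 (0.276, against 1.12 and 1.09 to in vivo 2 and 3). In vivo libraries 2 and 3 were the closest pair of all (0.181), but differed in the macrophage gene Adgre1 (4.53 and 7.31). Whether the label of non-primed 3 is right cannot be told from these values, and every non-primed mean and SD of 3 includes it. Libraries are therefore named by their labels, and results are given with and without those that stood apart.

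The 9 members followed this division. Their mean lay between 7.67 and 9.52 in the 7 fibroblast-rich libraries and between 2.6 and 5.18 in the 5 melanocyte-rich ones. The share of all genes whose ranges did not overlap between these sets was not counted, so the ranges of members are given as a description only. Bmp5, for example, ranged from 8.57 to 9.72 in the fibroblast-rich libraries and from 2.12 to 5.43 in the melanocyte-rich ones. Bmp2 (4.07 to 11.7 against 2.03 to 6.88) and Nog (3.92 to 7.61 against 2.88 to 4.61) did overlap. The lowest value of both genes among the 7 was in in vitro library 2. In bulk RNA, fewer cells of a type and less RNA per cell cannot be told apart.

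**Figure D1:**
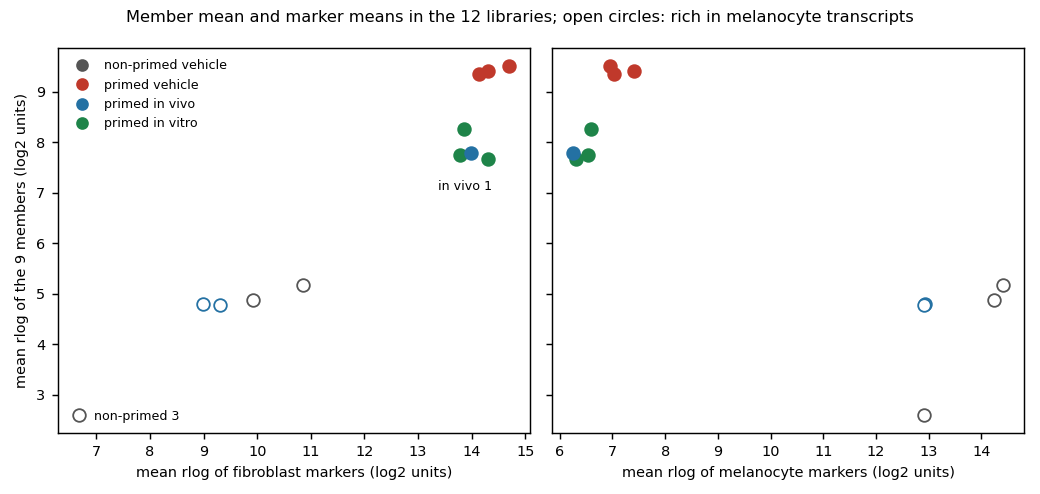
Mean rlog value of the 9 members (vertical) against the mean of 10 fibroblast markers (left) and 15 melanocyte markers (right), both in log2 units, 1 point per library, coloured by group. Open circles are the 5 melanocyte-rich libraries, which hold the lowest member means (2.6 to 5.18), and the library labelled non-primed 3 is lowest on both vertical and fibroblast axes.

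To compare levels between genes, the log2 of the exon length in kilobases was subtracted from each group mean. In the primed vehicle group Grem1 was far above all others on this per-kilobase log2 scale (14.98). Bmp2 (8.9), Bmp4 (8.79) and Bmp6 (8.51) came next and differed by less than the SD of Bmp4 over the 3 libraries (1.33). Bmp5 (7.29), Gdf6 (6.88), Gdf5 and Nog (both 6.13) followed, each within 1 SD of Nog (0.96) of its neighbour, and Bmp7 was lowest (2.43). In the in vitro treated group the per-kilobase order was Grem1 (12.18), Bmp4 (9.17), Bmp6 (7.56), Bmp5 (6.88), Gdf6 (5.36), Nog (4.45), Gdf5 (4.32), Bmp2 (3.95) and Bmp7 (2.39). Bmp2 thus ranked 2 of 9 in vehicle and 8 of 9 in treated cultures, where Gdf6, Nog, Gdf5 and Bmp7 all lay within the SD of Bmp2 (2.48) of it. In the in vivo treated group the order was Grem1 (10), Bmp4 (6.43), Bmp6 (4.7), Nog (3.82), Bmp2 (3.2), Bmp5 (3.15), Gdf6 (2.96), Gdf5 (1.61) and Bmp7 (1.34). Its neighbours below Grem1 lay within the SD of Bmp4 (2.54), with SDs up to 3.84 (Bmp5), and library 1 stood apart. In the non-primed group Grem1 (8.35) was followed by Bmp2 (3.15), Nog (2.87), Bmp4 (2.7), Bmp6 (2.21), Bmp5 (1.97), Gdf6 (1.86), Gdf5 (0.86) and Bmp7 (-0.86), and Bmp2 to Gdf5 lay within the SD of Bmp2 (2.59).

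Grem1 (ENSMUSG00000074934, chromosome 2, 113746164 to 113758646, minus strand, GRCm38) encodes gremlin 1, an antagonist that binds BMP2 and BMP4. It stood at 17.02, 16.68 and 17.4 in the primed vehicle libraries 1 to 3, and at 13.25, 14.21 and 15.24 in the in vitro treated libraries. In vivo libraries 1 to 3 held 13.68, 11.02 and 11.45, and non-primed libraries 12.14, 13 and 6.07. Primed vehicle was thus higher than every other library, treated or not, and the library labelled non-primed 3 was far below the rest.

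Nog (ENSMUSG00000048616, chromosome 11, 89300638 to 89302332, minus strand) encodes noggin. Its values were 7.61, 7.27 and 5.8 in primed vehicle, 5.5, 3.92 and 6.21 in vitro, 4.93, 4.61 and 4.21 in vivo, and 4.26, 3.75 and 2.88 in non-primed libraries. The vehicle and in vitro groups overlapped through vehicle library 3 and in vitro library 3.

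Bmp2 (ENSMUSG00000027358, chromosome 2, 133552159 to 133562885, plus strand) encodes a ligand that induces bone and cartilage. It stood at 11.7, 9.82 and 10.68 in primed vehicle libraries and at 4.64, 4.07 and 8.63 in vitro. In vivo libraries 1 to 3 held 5.17, 5.44 and 4.49, and non-primed libraries 6.05, 6.88 and 2.03. All treated libraries lay below vehicle, and in vivo library 1 lay between in vivo 2 and 3.

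Bmp4 (ENSMUSG00000021835, chromosome 14, 46383520 to 46390669, minus strand), the ligand closest to Bmp2 in sequence, went another way. Its values were 8.47, 11.04 and 10.35 in primed vehicle, 11.44, 10.94 and 8.64 in vitro, 10.52, 6.27 and 6 in vivo, and 4.68, 4.43 and 2.5 in non-primed libraries. Vehicle and in vitro groups overlapped. Vehicle library 1 and in vitro library 3 were the lowest of their groups in Bmp4 and the highest in Bmp2 and Bmp7. They were also the lowest of their groups in Comp (10.62 and 10.73, against 13.41 to 14.85 in the other 4 libraries) and Col2a1 (6.62 and 6.42, against 9.75 to 11.42). Not all listed cartilage genes shared this order. Acan was highest of its group in both (3.26 and 2.61), and Col9a1 was highest in vehicle library 1 (3.08). Matn3 was lowest in in vitro library 3 alone (4.26), and Sox9 lay between the others in both. The part of such transcripts in the Bmp4 values was not tested.

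Bmp5, Bmp6 and Bmp7 form a subfamily of closely related ligands. Bmp6 (ENSMUSG00000039004, chromosome 13, 38345107 to 38500302, plus strand) stood at 9.85, 10.95 and 10.63 in primed vehicle libraries and at 9.63, 9.64 and 9.29 in vitro, just below vehicle without overlap. In vivo libraries held 8.76, 5.48 and 5.74 and non-primed libraries 4.74, 5.37 and 2.43. Bmp5 (ENSMUSG00000032179, chromosome 9, 75775364 to 75900310, plus strand) stood at 9.72, 8.68 and 9.49 in vehicle, 8.57, 9.03 and 9.06 in vitro, 9.59, 2.72 and 3.17 in vivo, and 4.38, 5.43 and 2.12 in non-primed libraries. In vivo library 1 had as much Bmp5 as vehicle, and in vivo 2 and 3 had as little as the non-primed libraries. Bmp7 (ENSMUSG00000008999, chromosome 2, 172868012 to 172940321, minus strand) was weak, at 3.2 to 5.45 in the fibroblast-rich libraries and 0.99 to 2.63 in the others. Bmp7 and Gdf5 owed their mean above 3 to the fibroblast-rich libraries.

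Gdf5 (ENSMUSG00000038259, chromosome 2, 155941023 to 155945367, minus strand), a ligand of joint formation, stood at 7.06, 6.99 and 7.97 in primed vehicle and 4.74, 5.79 and 6.08 in vitro. In vivo libraries held 5.32, 1.71 and 1.44 and non-primed libraries 1.79, 2.64 and 1.78. Every in vitro value and in vivo library 1 lay below vehicle and above the melanocyte-rich libraries. Gdf6 (ENSMUSG00000051279, chromosome 4, 9844372 to 9862345, plus strand), its nearest relative, stood at 7.87, 9.58 and 8.64 in vehicle, 7.91, 7.5 and 6.13 in vitro, 7.23, 3.34 and 3.78 in vivo, and 4.56, 3.9 and 2.6 in non-primed libraries. Vehicle library 1 and in vitro library 1 made these groups overlap. Bmp4, Bmp5, Bmp6 and Gdf5 overlap genes on the opposite strand (Gm15222 lies within Bmp4, and Gm15557 shares 1728 bases with Gdf5). The strand setting of the counting is not given in the sources used here, so reads of these pairs cannot be told apart with certainty. Bmp5 also shares 1454 bases with Gm47723 on its own strand, where no strand setting would separate the reads.

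**Figure D2:**
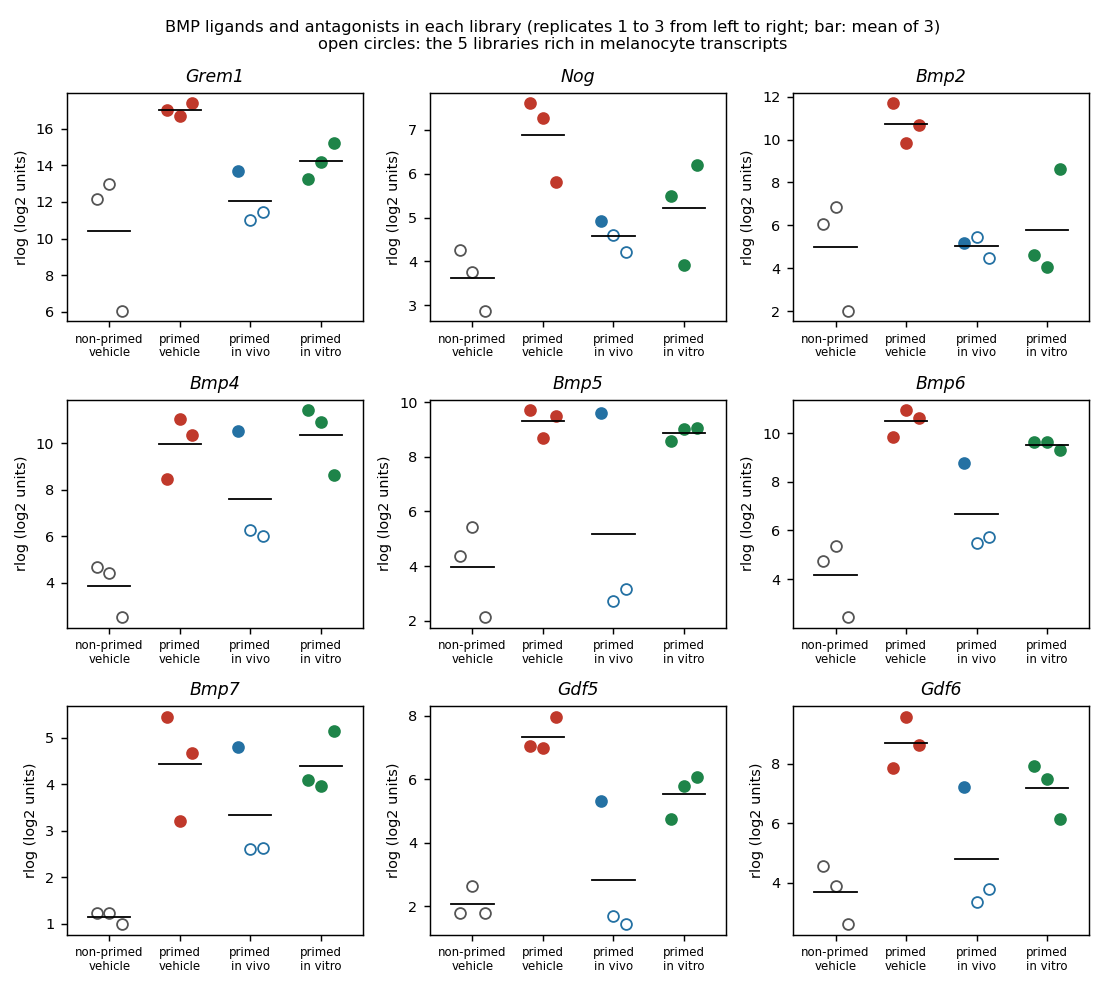
Rlog value (vertical, log2 units) of each member in each library, by group, with replicates 1 to 3 from left to right and a bar at the mean of 3. Open circles are the melanocyte-rich libraries; Grem1 and Bmp2 are highest in primed vehicle (red), while Bmp4 and Bmp5 are as high in in vivo library 1 and in vitro treated cultures as in vehicle.

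The promoter table of RefSeq (GRCm38.p6) held 4 of the 9 members, Grem1, Bmp4, Bmp5 and Bmp6. The 250 bases before the start of Grem1, Bmp4 and Bmp5 are shown to set a gene that was lower after I-BET151 beside a pair that was not: in the treated fibroblast-rich libraries Grem1 was below every vehicle library, while Bmp4 and Bmp5 overlapped vehicle. They run 5′ to 3′ on the gene's strand, at chr2:113758649-113758898 (minus), chr14:46390670-46390919 (minus) and chr9:75775115-75775364 (plus). Capitals mark matches on either strand to the GC box GGGCGG, the BMP-type GC element GGCGCC or the E-box CACGTG.
Grem1: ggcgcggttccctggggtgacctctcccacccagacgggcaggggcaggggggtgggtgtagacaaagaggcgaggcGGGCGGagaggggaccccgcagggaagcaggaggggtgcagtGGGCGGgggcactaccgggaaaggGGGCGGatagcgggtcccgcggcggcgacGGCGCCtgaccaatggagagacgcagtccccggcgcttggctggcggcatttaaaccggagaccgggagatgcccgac
Bmp4: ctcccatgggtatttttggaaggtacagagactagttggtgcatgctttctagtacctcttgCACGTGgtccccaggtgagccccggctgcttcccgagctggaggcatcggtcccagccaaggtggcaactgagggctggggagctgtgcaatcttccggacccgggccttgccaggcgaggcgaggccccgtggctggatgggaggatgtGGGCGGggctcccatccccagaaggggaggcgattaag
Bmp5: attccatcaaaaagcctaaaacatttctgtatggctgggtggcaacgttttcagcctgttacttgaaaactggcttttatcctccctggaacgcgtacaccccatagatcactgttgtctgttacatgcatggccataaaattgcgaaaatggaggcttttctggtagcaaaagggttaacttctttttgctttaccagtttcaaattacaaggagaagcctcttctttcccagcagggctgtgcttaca
The Grem1 window held 3 GC boxes and 1 GGCGCC element, with 72% G and C and 24 CpG dinucleotides. The window of Bmp6, which like Grem1 was below every vehicle library in the treated fibroblast-rich libraries, held 1 GC box and 1 E-box with 68.8% G and C and 22 CpG dinucleotides, the same motifs as Bmp4. It is not printed because it lies inside the GENCODE gene model. That of Bmp4 held 1 GC box and 1 E-box with 63.2% G and C, and that of Bmp5 none of these with 42.8% G and C and 4 CpG dinucleotides. Among 32851 promoter windows of the same length, 32.7% held a GC box, 9.59% GGCGCC and 6.02% CACGTG, and the median G and C content was 52.4%. The TATA box TATAAA (12.4% of windows), the AP-1 site TGANTCA (6.75%) and the NF-kB consensus (7.25%) had no match in the windows of these 3 genes or Bmp6. A match is a description of these letters only.

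Primed and non-primed vehicle libraries were compared to ask what a first crystal exposure left behind in cultured cells. All 9 members were higher in primed libraries and all 9 passed (limma over 12 libraries, Benjamini-Hochberg adjusted p under 0.05), where 51.8% of genes tested passed and 28.9% passed as higher. Bmp7 and Gdf5 reached the level required for testing only through the fibroblast-rich libraries. The filter thus favoured this direction for both, here and in the in vivo comparison below, and their results add no support. Grem1 rose from a mean of 10.4 ± 3.78 to 17.03 ± 0.36 (SD, n = 3), a difference of 6.63 log2 units with an SE of 1.51 (limma adjusted p = 0.0054). The sizes that follow are differences with their SE. Among ligands Bmp6 rose by 6.3 ± 0.91 (limma adjusted p = 0.00124), Bmp4 by 6.08 ± 1.25, Bmp2 by 5.75 ± 1.37 and Bmp5 by 5.32 ± 1.54. The weaker Gdf5 rose by 5.27 ± 0.89, Gdf6 by 5.01 ± 0.99, Bmp7 by 3.29 ± 0.69 and Nog by 3.26 ± 0.65. The median difference of the members was 5.32, against 0.05 over all genes. The groups did not overlap in any member, as in 61.7% of all genes (33.7% with primed higher). Every non-primed library was melanocyte-rich and every primed vehicle library fibroblast-rich, so priming and this division cannot be told apart here: 14 of 15 melanocyte markers fell and 9 of 10 fibroblast markers rose. Without the library labelled non-primed 3, Grem1 differed by 4.46 ± 0.78 and Bmp5 by 4.39 ± 1.69. Bmp5 then missed the threshold (limma adjusted p = 0.0556), and the other 8 members passed, where 48.9% of all genes did in either direction.

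Among the other lists, antagonists, ligands, Smads and targets had a larger share of genes called higher than all genes (28.9%), and receptors did not. Of 17 further antagonists 13 could be tested, and 10 rose and 1 fell, with a median of 3.95. The activin binder Fst (follistatin) rose by 6.76 ± 1.02, the secreted Bmper by 6.27 ± 1.28 and the serine protease Htra1 by 6.23 ± 1.32. Bambi, a decoy receptor, was the one that fell (-1.25 ± 0.23). Of 5 further ligands tested 3 rose, the activin subunits Inhba (6.71 ± 1.61) and Inhbb (6.07 ± 1.48) and the stress-induced Gdf15 (5.53 ± 1.06). Among 11 receptors and co-receptors 3 rose, a share near that of all genes, 1 fell and 7 did not pass, with a median of 0.22. Bmpr1b, a type I receptor that GDF5 prefers, rose by 6.14 ± 1.09, the co-receptor Tgfbr3 by 3.34 ± 0.91, and Acvr2b fell by 1.35 ± 0.38. Of 10 Smads and inhibitors 6 rose and 1 fell, the inhibitory Smads Smad6 (3.34 ± 0.53) and Smad7 (2.97 ± 0.44) and the repressor Skil (2.12 ± 0.31) most. Of 10 target genes 9 rose and 1, Id2, fell (-1.77 ± 0.57). Among those that rose, Dlx5 reached the level required for testing only through the fibroblast-rich libraries (3.28 to 5.64, against 0.97 to 1.87). The filter thus favoured this direction for Dlx5, and its result adds no support. The homeobox genes Msx2 (5.7 ± 0.91) and Msx1 (5.46 ± 1.05) and Id4 (5.51 ± 0.99) rose most. The marker split above applies to all of these lists, and its part in them was not tested.

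Primed paws of mice given I-BET151 were compared with those given vehicle to ask what BET inhibition in the animal changed. Of the 9 members 6 fell and none rose, where 39.7% of all genes passed and 21.8% passed as lower. Bmp2 fell by 5.7 ± 1.37 log2 units (SE, n = 3 per group; limma adjusted p = 0.0119), from 10.73 ± 0.94 to 5.03 ± 0.49 (SD), and Grem1 fell by 4.98 ± 1.51 (limma adjusted p = 0.0269). Gdf5 fell by 4.52 ± 0.89, Gdf6 by 3.92 ± 0.99, Bmp6 by 3.82 ± 0.91 and Nog by 2.31 ± 0.65. Bmp5 (-4.14 ± 1.54, limma adjusted p = 0.0548), Bmp4 (-2.36 ± 1.25) and Bmp7 (-1.09 ± 0.69) did not pass, and their groups overlapped. In the other 6 members the groups did not overlap, as in 49.1% of all genes (26.4% with treated lower). The members' median was -3.92, against -0.05 over all genes. With these 6 libraries alone in the fit, 24.0% of genes passed and 13.8% as lower, and Gdf6 lost its call (limma adjusted p = 0.0535). Without the library labelled non-primed 3, the 6 members that fell kept their calls and Bmp5 also passed as lower. The share of all genes passing in that setting is not given here.

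In vivo libraries 2 and 3 were melanocyte-rich, so in vivo library 1 was also set alone against vehicle in a fit without the 5 melanocyte-rich libraries, in which a lone library is assumed to vary like the other groups. In it 2 of the 9 members fell, where 20.4% of genes passed and 11.8% passed as lower. Grem1 differed by -3.35 ± 0.66 (limma adjusted p = 0.0176) and Bmp6 by -1.71 ± 0.4 (adjusted p = 0.0273). Bmp2 (-5.56 ± 1.66, adjusted p = 0.0555) and Gdf5 (-2.02 ± 0.61, adjusted p = 0.059) just missed the threshold. Nog differed by -1.97 ± 0.98 and Gdf6 by -1.47 ± 0.81. Bmp4 (0.56 ± 1.25), Bmp7 (0.36 ± 0.87) and Bmp5 (0.29 ± 0.41) turned to the positive side without passing. Bmp2 was the member whose difference moved least when the melanocyte-rich libraries were left out. Without in vivo library 1, all 9 members fell, where 60.5% of all genes passed in either direction. The shares given for the other left-out libraries also count both directions. Without in vivo library 2 or 3 only Bmp2 and Gdf5 of the members did, where 15.1% and 14.8% of genes passed. Leaving out vehicle library 2 left Bmp2, Bmp6 and Gdf5 (23.2% of genes), leaving out vehicle library 1 left these and Gdf6 (26.4%), and leaving out vehicle library 3 left these, Gdf6 and Nog (20.5%). Grem1 thus lost its call without any one of the 3 vehicle libraries, or without in vivo library 2 or 3.

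Genes of the wider pathway changed in both directions in this comparison, in which 39.7% of all genes passed and 21.8% as lower. The shares called lower among antagonists, receptors and targets were near or little above that of all genes. Of 13 other antagonists 4 fell, Fst (-4.98 ± 1.02), Bmper (-4.36 ± 1.28) and Tsku (-3.16 ± 0.6) most, and Bambi rose (limma adjusted p = 0.00519). Of 5 other ligands Inhba (-5.4 ± 1.61), Inhbb (-4.48 ± 1.48) and Gdf15 (-3.5 ± 1.06) fell, and Gdf11 rose by 2.1 ± 0.49. Of 11 receptors 3 fell and 2 rose, with falls in Bmpr1b (-4.3 ± 1.09), Acvrl1 (-2.76 ± 0.71), a type I receptor for BMP9, and Acvr1 (-0.86 ± 0.28). Of 10 Smads and inhibitors 6 fell and 1 rose, with Skil at -2.13 ± 0.31, Smad6 at -2.09 ± 0.53 and Smad7 at -1.84 ± 0.44. Of 10 targets Msx2 (-3.77 ± 0.91), Id4 (-3.2 ± 0.99) and Runx2 (-2.05 ± 0.65), a bone transcription factor, fell. With the 6 libraries alone in the fit, the calls were 2 lower and 1 higher for antagonists, 2 lower and 1 higher for ligands, 1 lower and 1 higher for receptors, 2 lower and 2 higher for Smads and inhibitors, and 1 lower for targets. With in vivo library 1 alone, Fst (-2.79 ± 0.29), Acvrl1 (-3.29 ± 0.35), Skil (-1.47 ± 0.2), Msx2 (-1.9 ± 0.35), Bmper (-1.22 ± 0.16), Tsku (-1.43 ± 0.25), Inhba (-2.34 ± 0.61) and Gdf11 (2.41 ± 0.19) still passed. Bambi (0.95 ± 0.34), Inhbb (-0.57 ± 0.34), Gdf15 (-1.72 ± 0.55), Acvr1 (-0.09 ± 0.18), Bmpr1b (-1.2 ± 0.38), Smad6 (-0.58 ± 0.25), Smad7 (-0.5 ± 0.15), Id4 (-0.88 ± 0.42) and Runx2 (-0.29 ± 0.36) did not.

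**Figure D3:**
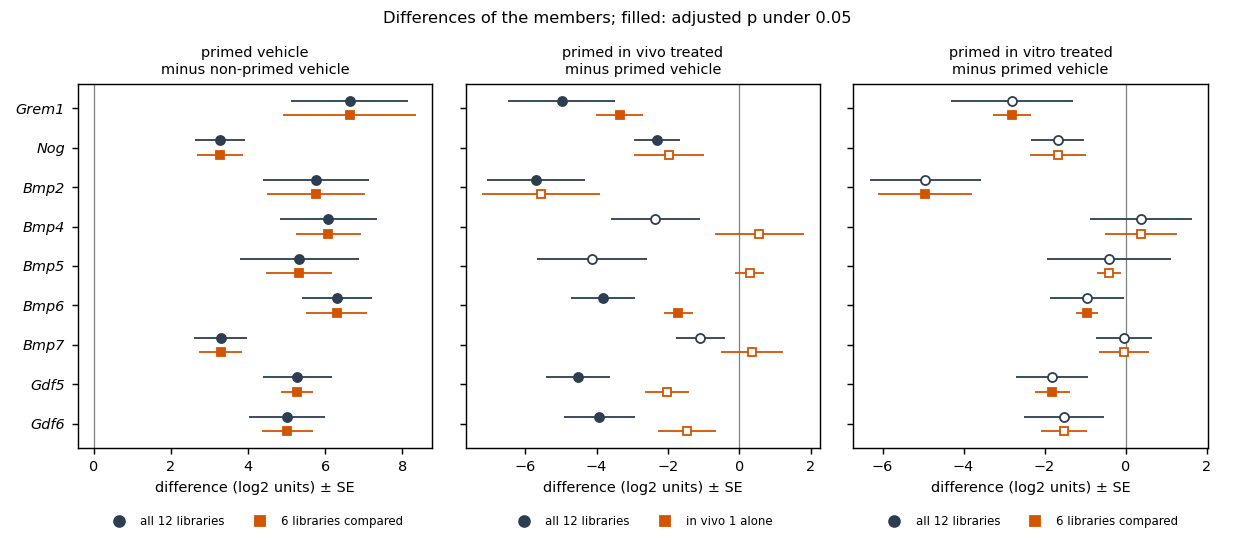
Difference of each member (horizontal, log2 units, bars: SE) in 3 comparisons, from the fit of 12 libraries (circles) and from a second fit (squares: the 6 libraries compared, or in vivo library 1 alone), filled where the adjusted p was under 0.05. Bmp4, Bmp5 and Bmp7 lie on both sides of 0 in the middle panel. Grem1, Bmp2, Bmp6, Gdf5, Gdf6 and Nog lie left of 0 in both fits of both treatments.

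Treated and vehicle cultures of primed paws were compared to measure the response to 24 h of inhibitor, and here both sides were fibroblast-rich (marker means 13.79 to 14.31 and 14.13 to 14.69). In the fit of 12 libraries no member passed, where 4.51% of genes did. Unadjusted p-values are not read here, as the share of all genes under such a cut-off was not counted. Bmp2 differed by -4.95 ± 1.37 log2 units (SE, n = 3 per group; limma adjusted p = 0.0643) and Grem1 by -2.8 ± 1.51 (adjusted p = 0.29). The spread in that fit includes the melanocyte-rich libraries. Without the library labelled non-primed 3, Bmp2 and Grem1 passed as lower in the fit of the remaining libraries. The share of all genes passing in that setting is not given here. When the fit held these 6 libraries alone, 4 of 9 members fell and none rose, where 30.3% of genes passed and 16.9% passed as lower. Grem1 fell by 2.8 ± 0.47 (limma adjusted p = 0.00682), Bmp2 by 4.95 ± 1.17 (adjusted p = 0.0207), Gdf5 by 1.81 ± 0.43 (adjusted p = 0.0217) and Bmp6 by 0.95 ± 0.28 (adjusted p = 0.0421). These are also the 4 members whose groups did not overlap, as in 48.4% of all genes (25.7% with treated lower).

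The other 5 members did not pass in either fit. Gdf6 differed by -1.52 ± 0.57 and Nog by -1.68 ± 0.69 in the fit of 6 (limma adjusted p = 0.0881 and 0.109). Bmp5 differed by -0.41 ± 0.29, Bmp7 by -0.04 ± 0.62 and Bmp4 by 0.38 ± 0.88, which does not show that these 3 were equal. The median of the members was -1.52 against -0.02 over all genes. When each of the 6 libraries was left out of this fit in turn, Grem1 passed every time, and 1 to 3 members passed in all. Bmp2 and Gdf5 each missed the threshold without vehicle library 3, in vitro library 1 or in vitro library 2. Bmp2 also missed it without vehicle library 1, and Bmp6 passed only without vehicle library 1. In vitro library 3, the treated library with the most Bmp2 and Grem1, was the closest of its group to vehicle library 1 (0.49).

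**Figure D4:**
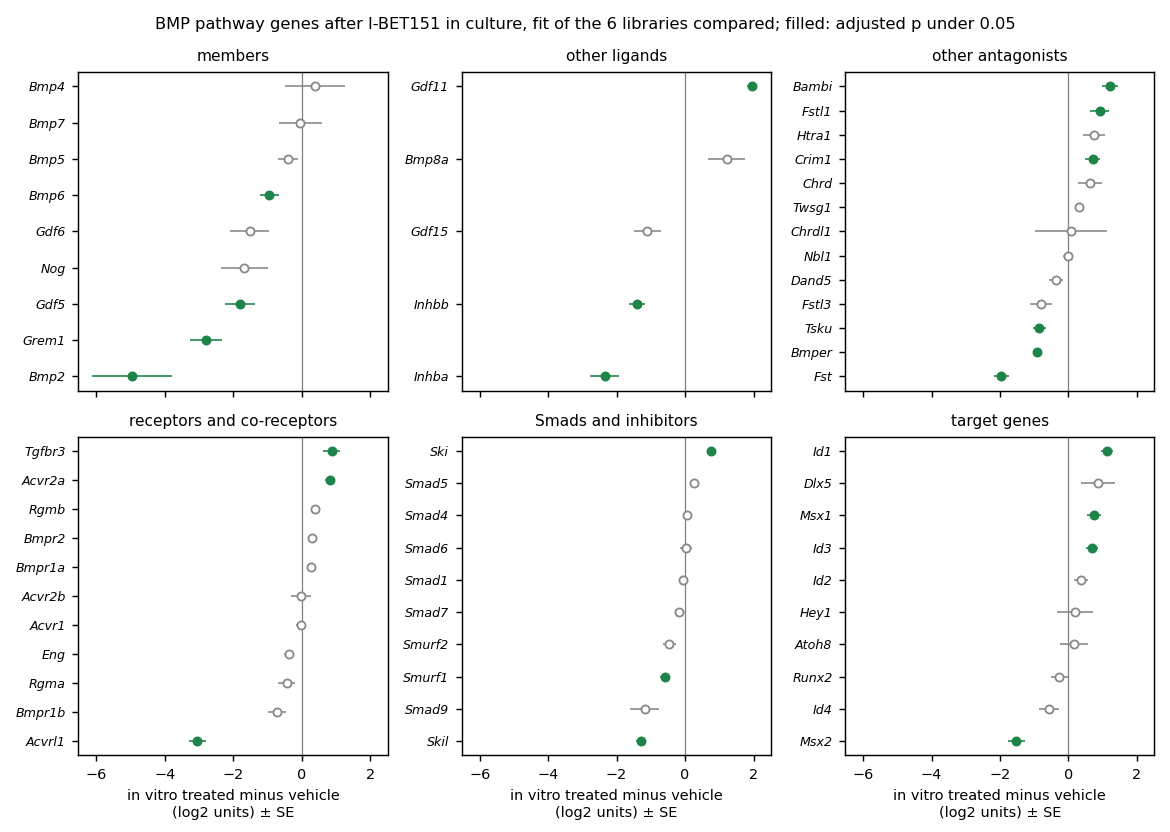
Difference of the listed BMP pathway genes that were tested between in vitro treated and vehicle cultures (horizontal, log2 units, bars: SE) in the fit of the 6 libraries compared, by role, filled where the adjusted p was under 0.05. Bmp2, Acvrl1, Grem1 and Inhba lie farthest left, and Gdf11 and Bambi farthest right among genes that passed.

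Among the other pathway genes in culture, ligands, antagonists and targets each changed in both directions in the fit of 6 libraries, in which 30.3% of all genes passed and 16.9% as lower. Of 5 other ligands Inhba (-2.35 ± 0.43) and Inhbb (-1.4 ± 0.24) fell and Gdf11 rose (1.96 ± 0.14, limma adjusted p = 0.00171). Gdf11 stood at 13.65 to 13.89 in treated cultures and at 11.61 to 12.07 in vehicle. The library labelled non-primed 3 held 13.84, against 11.69 and 11.49 in non-primed 1 and 2. Of 13 other antagonists 3 fell and 3 rose, with Fst at -1.96 ± 0.21, Bmper at -0.92 ± 0.11 and Bambi at 1.21 ± 0.24.

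Of 11 receptors tested, 1 fell and 2 rose, and of 10 Smads and inhibitors 2 fell and 1 rose, both near the share of all genes. Acvrl1 fell by 3.05 ± 0.24 (limma adjusted p = 0.00189), from 11.39 to 11.6 in vehicle down to 8.04 to 9 in treated libraries, and Tgfbr3 (0.88 ± 0.25) and Acvr2a (0.82 ± 0.15) rose. Among Smads and inhibitors Skil (-1.3 ± 0.14) and Smurf1 fell and Ski rose (0.75 ± 0.12), while Smad9 (-1.18 ± 0.43, adjusted p = 0.0774) did not pass. Of 10 targets Id1 (1.13 ± 0.18), Id3 and Msx1 rose, Msx2 fell (-1.52 ± 0.25) and Dlx5 (0.86 ± 0.5) did not pass. Id1 stood at 13.43 to 13.48 in treated and 11.94 to 12.72 in vehicle cultures. In the fit of 12 libraries 3 of these genes passed: Bambi, Acvrl1 and Skil. Macrophage marker means were 9.92 to 11.55 in treated and 10.87 to 11.91 in vehicle cultures, and melanocyte marker means 6.3 to 6.6 and 6.96 to 7.41. Their part in these differences was not tested.

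The treatments were also set against each other. Of all genes 0.00% passed between in vitro and in vivo treated libraries, and no member did (limma, 12 libraries). The largest member differences, each higher in vitro, were those of Bmp5 (3.73 ± 1.54), Bmp6 (2.86 ± 0.91), Bmp4 (2.74 ± 1.25), Gdf5 (2.71 ± 0.89) and Gdf6 (2.4 ± 0.99). Unadjusted p-values are not read here, as their share over all genes was not counted. The median difference was -5.14 for melanocyte markers and 3.5 for fibroblast markers. The groups did not overlap in 22.4% of all genes and in 1 member, Bmp6. Without in vivo library 1, 6 members passed as higher in vitro, all but Bmp2, Grem1 and Nog, where 49.1% of all genes passed in either direction. Against in vivo library 1 alone, the differences were 0.61 ± 1.66 for Bmp2, 0.55 ± 0.66 for Grem1, 0.28 ± 0.98 for Nog and -0.7 ± 0.41 for Bmp5, and none passed. Both treatments were compared with the same vehicle libraries.

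Profiles over the 12 libraries were compared as the mean absolute difference between genes, each centred on its own mean. Among the genes most like Grem1 were Arhgap22 (0.48 log2 units) and Cck (0.49). Bmp6 was most like Slc39a8 (0.21), Adgrg2 (0.23) and Atp10a (0.24), Bmp4 most like Angptl7 (0.26), Pcsk6 (0.35) and Clec11a (0.39), and Bmp5 most like Cthrc1 (0.33), Fap (0.35) and Nynrin (0.38). Gdf6 was most like Pparg (0.29), Rdh12 (0.36) and Vit (0.38), and Gdf5 most like Rtl3 (0.32), Podnl1 (0.35) and H2-Q10 (0.37). Bmp7 was nearest to Alox12 (0.31), Khdrbs2 (0.36) and Tnnc2 (0.37), and Nog to Unc13c (0.37), Celsr1 (0.43) and Cldn3 (0.43). Bmp2 had no close neighbour, with Phf11b and Kcnn4 (both 0.74) and Prl8a9 (0.75) nearest. Within the members, Bmp6 and Gdf6 were the most alike (0.62) and Bmp2 and Bmp4 the least (2.55). All these profiles share the division between melanocyte-rich and fibroblast-rich libraries, and the distances are descriptions of 12 libraries.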

How the data were processed

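RNA of 12 cultures was prepared with a stranded kit for polyadenylated RNA, per the labels' protocols. The build was GRCm38, and DESeq2 1.24.0, Subread 1.6.1 (featureCounts), STAR 2.6.1c and cutadapt 1.18 were used, per the submitters' processing notes. Not given in the sources used here are the tool settings, the strand setting and the annotation release. The authors' deposited values are log2 (rlog) values, per the name and range (-2.24 to 20.6) of the table, so no count model was used and depth is unknown.

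Symbols and coordinates came from GENCODE M21 of GRCm38, and the members, gene lists and rule for named genes were chosen with earlier results of these data known. The rule named all members, and of each pathway list up to 3 genes with the largest difference per comparison. One further gene is not reported here and was taken out of the antagonist list. Genes with a mean of at least 3 were fitted with limma 3.58.1 in R 4.3.3 (1 mean per group, variance trend, all 12 libraries). P-values were two-sided and Benjamini-Hochberg adjusted over 16459 genes, and an adjusted p under 0.05 was called. Fits of only the libraries compared and other scalings, filters and left-out libraries were alternatives. The procedure was tested on simulated data with independent noise and the same spread in every group. The spread of these libraries differs between groups, so that test gives no error rate for them.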

Additional observations from a re-analysis of the deposited data

How the results depend on the processing

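All 9 members kept their direction and call in primed against non-primed libraries under no filter, no variance trend, median centring, quantile normalization, the 6 libraries alone and the replicate block. With a minimum mean of 5, Bmp7 and Gdf5 were not tested. Median centring moved the median of all genes from 0.05 to -0.08 in that comparison and from -0.05 to 0.14 in vivo, and quantile normalization to -0.24 and 0.19. The split of calls was 4754 higher and 3774 lower, and 3858 and 5680 with quantile normalization. In vivo it was 2946 and 3585, 4029 and 2964 with median centring and 4595 and 2967 with quantile normalization, under which Nog lost its call. In culture it was 289 and 454, and 573 and 582 with quantile normalization.

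The number of genes called in vivo was 6531 with 12 libraries, 3950 with the 6 compared and 3365 without the melanocyte-rich libraries, and members called were 6, 5 and 2. In culture 743 genes passed, 1180 without a filter, 470 with a minimum mean of 5, 1155 with quantile normalization, 4983 with the 6 libraries and 4989 without the melanocyte-rich ones. Members called in culture were 0 with 12 libraries, 1 with quantile normalization (Bmp2) and 4 in each of the last 2 fits. In vitro against in vivo, 0 genes passed and 1 without a filter.

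Leaving out 1 library gave 6706 to 9761 genes and 8 to 9 members for primed against non-primed, 2435 to 9962 and 2 to 9 in vivo, 12 to 2644 and 0 to 2 in culture, and 0 to 8085 and 0 to 6 for in vitro against in vivo. In the fit of 6 libraries, an alternative chosen after the data were seen, it gave 2520 to 4612 genes (4237, 3414 and 3731 without vehicle library 1, 2 or 3 and 2771 without in vitro library 1) and 1 to 3 members. The replicate block gave 173 genes in culture with 12 libraries, and 3765 genes and 3 members (Bmp2, Gdf5 and Grem1) with 6. Same-numbered libraries did not deviate together (r across genes -0.268 to 0.158 in culture), so the numbers were not taken as pairs. Differently numbered ones in culture ranged from -0.438 (in vitro 3 with vehicle 2) to 0.421 (in vitro 3 with vehicle 1). In vitro 1 with vehicle 2 gave 0.359. A shared origin of such libraries was not tested, and the fits treat them as unpaired.

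Differences that turned sign had not passed. Without the melanocyte-rich libraries they were Bmp4 (0.56), Bmp5 (0.29) and Bmp7 (0.36) in vivo, and Bmp4 (-0.18), Bmp5 (-0.7), Bmp7 (-0.41) and Gdf6 (-0.05) between treatments. In culture Bmp7 gave 0.05 with median centring and 0.24 with quantile normalization. With 1 library left out, Bmp7 in culture gave -0.66 to 0.46, above 0 without vehicle library 1 (0.46) or 3 (0.07) or in vitro library 1 (0.11) or 2 (0.18). Bmp4 in culture gave -0.36 to 1.23, below 0 without vehicle library 1 (-0.36) or in vitro library 1 (-0.17). Bmp2 between treatments gave -0.68 to 1.6, below 0 without in vitro library 3. The cause was not tested.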
